A study of Drosophila melanogaster with 24 samples.

Results

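The fourth chromosome is the smallest chromosome of *Drosophila melanogaster*, and Cap-G binding along it was measured by Targeted DamID in 3 cell types of the third instar larval brain. Its members here are the GATC fragments that the deposited tracks list under sequence name 4, which are 3593 of 373710 fragments and cover 1346825 bp. Cap-G is a subunit of condensin I, a ring-shaped complex that compacts chromosomes. In Targeted DamID, Dam methylase from bacteria is joined to a protein and marks GATC sites near the places where that protein binds, and the cells are chosen by a GAL4 driver. The fusion was made from *UAS-Cap-G-Dam* with *wor-GAL4* in neural stem cells (NSCs), with *elav-GAL4* in immature and mature neurons (elav neurons), or with *nSyb-GAL4* in mature neurons (nSyb neurons). For each driver 2 samples carried the fusion and 2 carried Dam alone from *UAS-LT3-NDam*, and every sample pooled 30 brains. All animals carried *tub-GAL80ts*, which kept the driver silent at 18°C until a shift to 29°C for 24 h. DNA came from whole brains, so a track reports the cells in which the driver was active and not sorted cells.

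The authors deposited 1 averaged track per driver, and each value is the log2 of Cap-G-Dam over Dam (log2 Cap-G-Dam/Dam) in a GATC fragment. Values above 0 mean more methylation by the fusion than by Dam alone. Below 0, a lower level of Cap-G and a higher level of methylation by Dam alone cannot be told apart. The averages leave no spread between replicates and no read depth, so no value has an error, no difference was tested, and every comparison describes these tracks. The 3 tracks were normalised separately, so percentiles or scaled values, explained where first used, serve to compare cell types. Where 3 values follow each other without names, they belong to NSCs, elav neurons and nSyb neurons, in that order.

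The fourth chromosome, also called the dot chromosome, is packaged much like heterochromatin along its length, with the heterochromatin protein HP1a and methylated H3K9, and yet it is rich in transcribed genes. A chromosome-specific protein, POF, binds its active genes. Several of its genes, such as *ey*, *toy* and *ci*, are regulators of eye and body patterning, and others encode synaptic proteins.

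The fourth chromosome had lower ratios than every other chromosome arm in all 3 cell types. Its mean log2 Cap-G-Dam/Dam, weighted by fragment length, was -0.23 (NSCs), -0.18 (elav neurons) and -0.20 (nSyb neurons). The means of the other 5 arms together were -0.044, -0.028 and -0.040. Arm by arm, these lay from -0.048 to -0.039 in NSCs, from -0.049 to -0.018 in elav neurons, and from -0.081 to -0.024 in nSyb neurons. The lowest of these nSyb means was that of X. The fourth chromosome differed from the other arms together by -0.19 (NSCs), -0.15 (elav neurons) and -0.16 (nSyb neurons).

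The low mean came from many fragments and not only from deep dips. In NSCs, 16.4% of the fragments of the fourth chromosome were above 0, beside 46.8% of all fragments of the genome. In elav neurons 37.7% were above 0 beside 52.4% of all, and in nSyb neurons 28.5% beside 52.0%. No other arm had under 45.0% above 0 in any track. The sign was often shared between cell types, since 37.0% of the fragments were below 0 in all 3 tracks, beside 17.2% on the other arms. Fragments above 0 in all 3 tracks made up 5.18% of the chromosome and 25.5% of the other arms. Both tails moved in the same direction: 16.6% of its fragments (NSCs), 9.91% (elav neurons) and 15.8% (nSyb neurons) were below the percentile 5 of their track. Above the percentile 95 lay 1.17%, 1.39% and 1.92%. The fragments were somewhat longer than elsewhere, with a median of 238 bp beside 196 bp, and 205 of them (5.71%) were listed at exactly 0 in all 3 tracks, a share close to the 6.61% of the other arms.

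The other arms were next divided into 95 windows as long as the fourth chromosome. None of the 95 had a lower mean in NSCs, where the lowest was -0.12, or in nSyb neurons, where the lowest was -0.13. In elav neurons none was lower either, but the lowest window, on 2L, was also at -0.18 after rounding. By the share of fragments above 0, 4 windows were lower (NSCs), 11 (elav neurons) and 1 (nSyb neurons). Some of these windows are rich in fragments listed at 0. Among the 89 windows with under 25% of fragments at 0 in all 3 tracks, 0 were lower (NSCs), 5 (elav neurons) and 0 (nSyb neurons).

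**Figure D1:**
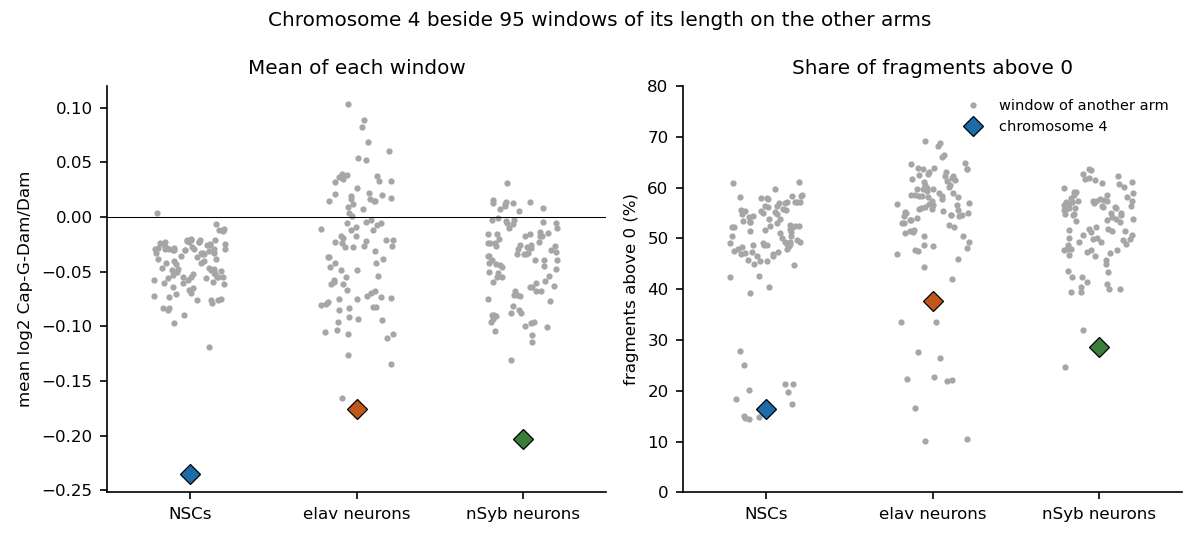
The left panel plots the mean log2 Cap-G-Dam/Dam and the right panel the percentage of fragments above 0, for chromosome 4 (diamonds) and for 95 windows of its length on the other arms (grey points, spread sideways at random), in the 3 averaged tracks. The diamonds at -0.23 and -0.20 lie apart from the grey points of NSCs and nSyb neurons, while the lowest window of elav neurons lies under the diamond at -0.18.

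The ends of the large arms near the centromeres, which are also heterochromatic, had less low means than the fourth chromosome. Over the 2 Mb nearest the centromere on 2L, 2R, 3L, 3R and X, the means ran from -0.081 to -0.026 in NSCs, from -0.084 to -0.009 in elav neurons and from -0.023 to 0.019 in nSyb neurons. Their values also varied less: the SD over fragments was at most 0.24 in NSCs, beside 0.39 on the fourth chromosome. Many fragments of these ends were listed at 0, for example 2413 of 5825 on 3L in NSCs, so part of their small spread is made of such values. In nSyb neurons the SD over fragments of the fourth chromosome was 0.45, beside 0.36 on the other arms.

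Along the chromosome, the low values reached from *PlexB* near the left end to *Cadps* near the right end. All 14 windows of 100 kb were below 0 in each of the 3 tracks, from -0.42 to -0.078 in NSCs, from -0.42 to -0.039 in elav neurons and from -0.31 to -0.029 in nSyb neurons. The lowest of them was the same window in all 3 tracks, from 400001 to 500000, which holds *lgs*, *CaMKI*, *Taf3* and *Asator*. In bins of 10 kb, 128 of 135 were below 0 (NSCs), 102 (elav neurons) and 103 (nSyb neurons). The sign alone does not set the chromosome apart. The 95 longer windows of the other arms also had medians below 0, at -0.040, -0.024 and -0.035. Windows of 100 kb and bins of 10 kb below 0 were not counted on the other arms. The 2 outer stretches of the fourth chromosome differed from the rest of it. Before *PlexB*, 97 fragments over *JYalpha* and 3 pseudogenes had means of 0.007, 0.069 and 0.051, with 33 of them listed at 0 in all 3 tracks. After *Cadps*, 170 fragments had means of -0.097, -0.27 and -0.048, with 105 at 0. The 3326 fragments between had -0.25, -0.18 and -0.22.

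**Figure D2:**
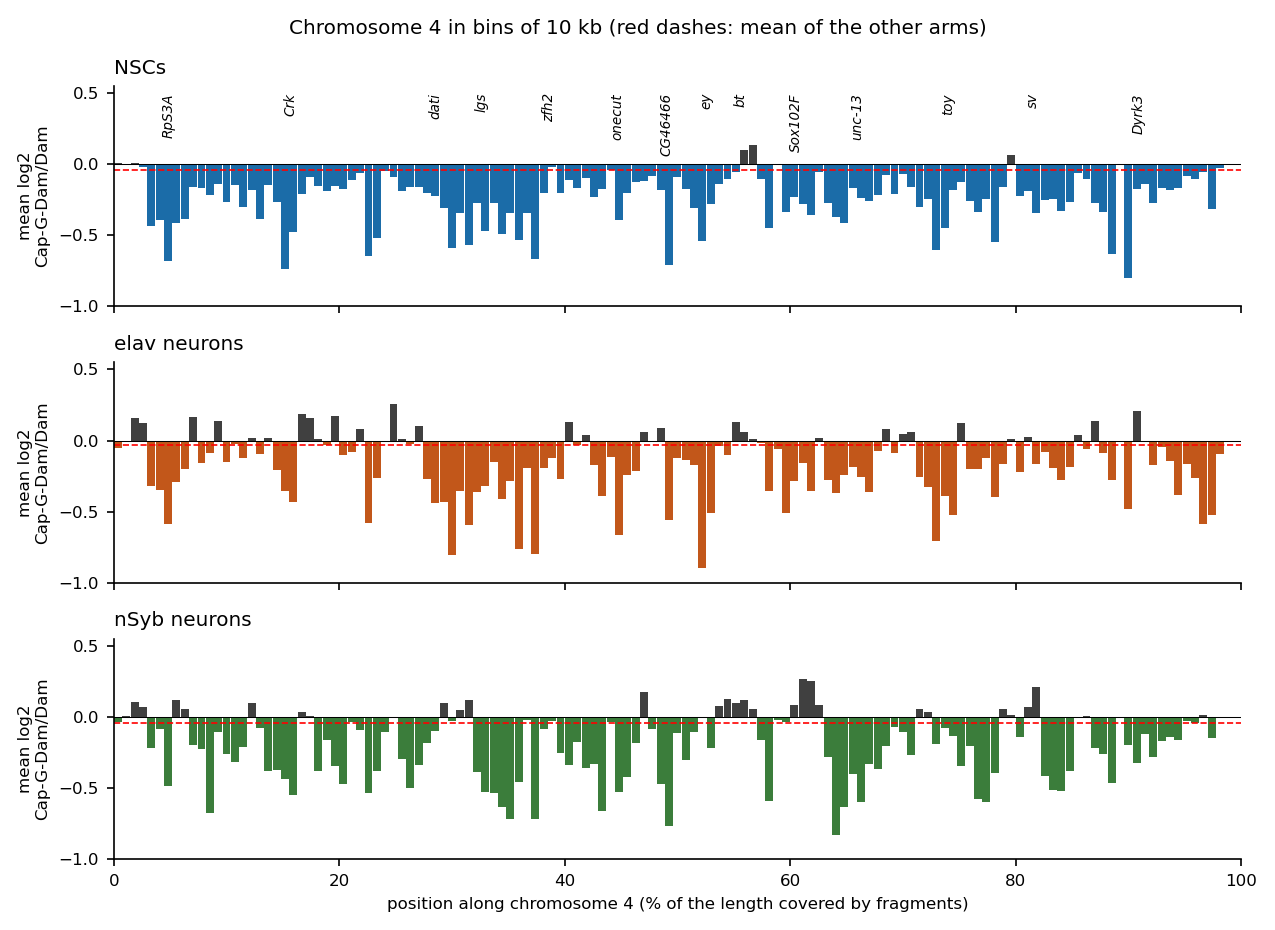
Mean log2 Cap-G-Dam/Dam in bins of 10 kb along chromosome 4 in NSCs, elav neurons and nSyb neurons, with position as a percentage of its length, bins below 0 in colour and bins above 0 in grey, and the mean of the other arms as red dashes. In NSCs 5 bins rise above 0, 2 of them over *bt*, while 31 (elav neurons) and 30 (nSyb neurons) do so in the other tracks. Such bins were not counted on the other arms.

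Several of the deepest bins fell on genes. The lowest NSC bin, with -0.80, lay in *Mitf* and held only 3 fragments. The bin from 660001 to 670000, over *gw*, *CG46466* and *Slip1*, had -0.71 (NSCs), -0.56 (elav neurons) and -0.77 (nSyb neurons). It was low in every track, as was the bin from 500001 to 510000 in *zfh2*, with -0.67, -0.80 and -0.72. Other bins were low in 2 cell types only. The bin from 700001 to 710000 in *ey* had -0.54 in NSCs and -0.90 in elav neurons, the lowest bin of that track, but -0.005 in nSyb neurons. The opposite was seen from 110001 to 120000, at the border of *pan* and *Ank*, where NSCs had -0.21, elav neurons -0.084 and nSyb neurons -0.68. The lowest nSyb bin, with -0.83, lay over *Gyf* and *unc-13*, where both other tracks had -0.37.

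Genes of the fourth chromosome lay low in each track. Gene values are means of log2 Cap-G-Dam/Dam from annotated start to end, weighted by the bases in each fragment, and the gene table lists 80 protein-coding genes on this chromosome. In NSCs 77 of them were below 0, beside 50.5% of all protein-coding genes, and the median was -0.22 beside a median of -0.0004 for the other arms. In elav neurons 61 were below 0, beside 41.3% of all, with a median of -0.15 beside 0.052. In nSyb neurons 68 were below 0, beside 49.5% of all, with a median of -0.29 beside 0.0. Placed among all 13922 protein-coding genes of the track, the median gene was at percentile 14.7 (NSCs), 23.7 (elav neurons) and 14.6 (nSyb neurons). No gene was above percentile 90 in NSCs or nSyb neurons, and *Dyrk3* was so in elav neurons. Above 0 lay 3 genes in NSCs, beside 48.4% of all, 19 in elav neurons, beside 57.7%, and 12 in nSyb neurons, beside 49.5%. The 3 in NSCs were *JYalpha*, *bt* and *fd102C*, none of them above 0.021.

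The genes are long, with a median span of 10090 bp beside 2151 bp on the other arms, and the short genes among them were the lowest. The 18 genes under 5 kb had medians of -0.57 (NSCs), -0.30 (elav neurons) and -0.52 (nSyb neurons), and the 62 longer genes had -0.20, -0.10 and -0.25. On the other arms the medians of short and long genes were 0.0 and -0.004 in NSCs, 0.045 and 0.071 in elav neurons, and 0.005 and -0.019 in nSyb neurons. As a description across the 80 genes, which share their library and their neighbourhood, Spearman's rank correlation between value and span was 0.40, 0.22 and 0.44, beside -0.002, 0.060 and -0.029 on the other arms. The 5 kb limit was set with the values known.

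Several short genes with housekeeping roles had low values. *RpS3A*, which encodes a protein of the small ribosomal subunit, had -0.53 (NSCs), -0.60 (elav neurons) and -0.67 (nSyb neurons), and none of its 5 fragments was above 0 in any track. *Rad23*, which encodes a ubiquitin receptor that brings proteins to the proteasome, had -0.76, -0.35 and -0.30. *ATPsynbeta*, the beta subunit of the mitochondrial ATP synthase, had -0.30, -0.15 and -0.68. *ND-49*, a subunit of respiratory complex I, had -0.37, -0.33 and -0.52. These genes were below 0 in all 3 cell types, and by log2 ratio the mature neurons were the lowest at 3 of the 4. The tracks were normalised separately, and the order depends on the measure. By percentile *RpS3A* was lowest in nSyb neurons (3.26, 4.76 and 2.69). By scaled value (distance from the median gene in robust SDs, explained below) it was lowest in NSCs (-3.22, -2.32 and -2.63). In elav neurons *ATPsynbeta* was close to the median of the 80 genes. Of the 9 listed housekeeping genes, which also include *Tdg*, *Pur-alpha* and *Gyf*, 9 were below 0 (NSCs), 6 (elav neurons) and 9 (nSyb neurons), beside 77, 61 and 68 of all 80. Their medians were -0.30, -0.15 and -0.32, beside -0.22, -0.15 and -0.29 for the 80, so as a list they were close to the chromosome. In elav neurons *Tdg* (0.11), a DNA glycosylase gene, *eIF4G1* (0.052), which encodes a scaffold of translation initiation, and *4E-T* (0.038), which encodes a partner of eIF4E, were above 0.

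The lowest protein-coding gene in all 3 tracks was *CG46466*, which lies next to *gw* from 661009 to 663124. Its values were -1.23 (NSCs), -0.91 (elav neurons) and -1.30 (nSyb neurons), and 0 of its 10 fragments were above 0 in any track. *Crk*, which encodes a signalling adaptor protein, had -1.08, -0.76 and -0.86, the next lowest in NSCs and elav neurons. *CG11076* had -0.69, -0.76 and -0.80. These 3 genes were among the 5 lowest in every track, and each lay under percentile 3 in all of them. *Arl4*, a gene for a small GTPase of the Arf family, was low above all in NSCs, with -0.83 there, -0.53 in elav neurons and -0.40 in nSyb neurons. *Zip102B*, a gene of the zinc transporter family, had -0.62, -0.63 and -0.78.

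A list of 4 genes of RNA silencing and transcription machinery (*gw*, *Taf3*, *MED26* and *Hcf*) and 2 kinase genes (*Asator* and *Dyrk3*) was lowest in nSyb neurons. Its median over 6 genes was -0.36 (NSCs), -0.19 (elav neurons) and -0.60 (nSyb neurons), at the percentiles 7.95, 21.3 and 3.65. The median of the 80 genes had the same order, with -0.22, -0.15 and -0.29, at the percentiles 14.7, 23.7 and 14.6. *gw* encodes the GW182 protein of the miRNA silencing complex and had -0.31, -0.12 and -0.64, but 0.13 in elav neurons as the unweighted median of its fragments. *Taf3*, a gene for a TFIID subunit, had -0.45, -0.41 and -0.78, and *MED26*, a gene for a Mediator subunit, had -0.45, -0.26 and -0.62. *Hcf*, which encodes a host cell factor, a chromatin cofactor, had -0.19, 0.057 and -0.37. *Asator*, a gene for a kinase of the tau-tubulin kinase family, had -0.40, -0.44 and -0.58. By log2 ratio all 6 had their lowest value in nSyb neurons. By scaled value 3 of the 6 were higher and 3 lower in nSyb neurons than in NSCs, with a median difference of -0.094. *Dyrk3*, a gene for a protein kinase, was the highest gene of the chromosome in elav neurons. It had -0.19 in NSCs, 0.45 in elav neurons, where 15 of its 15 fragments were above 0, and -0.25 in nSyb neurons, where none was.

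The patterning transcription factors followed another order, with nSyb neurons the highest at many of them. Over the 15 listed genes the median was -0.25 (NSCs), -0.31 (elav neurons) and -0.11 (nSyb neurons), at the percentiles 12.8, 13.4 and 32.9. *ey*, the *Drosophila* Pax6 gene that directs eye development, had -0.40 (NSCs), -0.62 (elav neurons) and -0.10 (nSyb neurons), and 9, 5 and 23 of its 70 fragments were above 0. *toy*, its Pax6 paralogue, had -0.35, -0.53 and -0.11. Both were below 0 in every track. *Sox102F*, a SoxD gene, changed sign, with -0.32 (NSCs), -0.31 (elav neurons) and 0.13 (nSyb neurons), and 11, 18 and 62 of its 79 fragments were above 0. *fd102C*, a forkhead gene beside it, had 0.015, -0.15 and 0.29, the highest value of the chromosome in nSyb neurons. *sv*, the Pax2 homologue that acts in eye and bristle development, had -0.25, -0.058 and 0.10, the last of which was -0.023 with 5 kb added on each side. *fuss*, a Ski/Sno family gene, had -0.22, -0.29 and 0.062. *dati*, a zinc finger gene that acts in neurons, had -0.22, -0.48 and 0.009.

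Not all members of this list were highest in nSyb neurons. *lgs*, which encodes Legless, a coactivator of Wnt signalling, had -0.35, -0.46 and -0.97, and 6, 8 and 0 of its 27 fragments were above 0. *NfI*, a nuclear factor I gene, had -0.14, -0.015 and -0.61. *onecut*, a gene for a homeodomain protein of neurons, had -0.19, -0.46 and -0.55. These 3 genes had their lowest values in nSyb neurons. *pho*, which encodes a DNA-binding Polycomb group protein, was highest in elav neurons, with -0.43, 0.048 and -0.18. *zfh2*, a zinc finger homeodomain gene, had -0.25, -0.33 and -0.25. *ci*, the effector of Hedgehog signalling, had -0.34, -0.37 and -0.13, and *pan*, the TCF factor of Wnt signalling, had -0.30, -0.16 and -0.13. *Mitf*, a regulator of lysosomal genes, had -0.12, -0.068 and -0.10.

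Genes of neuronal signalling were nearest to 0 in elav neurons. Over 16 listed genes the median was -0.18 (NSCs), -0.077 (elav neurons) and -0.28 (nSyb neurons). None was above 0 in NSCs, 5 were in elav neurons (*Ank*, *PMCA*, *Gat*, *Ekar* and *mGluR*), and *Gat* and *Ekar* were in nSyb neurons. Of all 80 genes, 3, 19 and 12 were above 0. *unc-13*, which encodes a protein that primes synaptic vesicles, had -0.28, -0.26 and -0.47. *Cadps*, which encodes a protein of dense core vesicle release, had -0.18, -0.092 and -0.17, and the calcium sensor gene *Syt7* had -0.20, -0.16 and -0.21. *Cals*, a calsyntenin gene, had -0.23, -0.14 and -0.48. *unc-13*, *Cadps*, *Syt7* and *Cals* were thus below 0 in all 3 tracks, as were most of the 80 genes. *Gat*, the GABA transporter gene, had -0.078, 0.085 and 0.14, and its neighbour *Ekar*, which encodes a kainate-type glutamate receptor, had -0.11, 0.056 and 0.13. *Ank*, which encodes an ankyrin, had -0.14, 0.13 and -0.26. With 5 kb added on each side of the genes, *Gat* was at -0.069 and *Ank* at -0.019 in elav neurons. *PMCA*, a plasma membrane calcium pump gene, had -0.16, 0.073 and -0.29, and *mGluR*, the metabotropic glutamate receptor gene, had -0.059, 0.043 and -0.10. The semaphorin receptor genes *PlexA* (-0.17, -0.012 and -0.28) and *PlexB* (-0.25, -0.020 and -0.10) and the pair *Eph* (-0.15, -0.15 and -0.37) and *Ephrin* (-0.17, -0.074 and -0.34), a receptor and its ligand, were below 0 throughout, as was *dpr7*, an immunoglobulin gene of neurons (-0.19, -0.21 and -0.60).

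The 3 genes of TGF-beta family ligands were below 0 in every track, as were most of the 80 genes. *mav* (maverick) had -0.21 (NSCs), -0.50 (elav neurons) and -0.45 (nSyb neurons). *myo* (myoglianin) had -0.32, -0.19 and -0.12, and *Actbeta* (an activin) had -0.19, -0.24 and -0.26. Their order over the cell types differed from gene to gene.

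Structural and metabolic genes varied widely. Over 7 listed genes of cytoskeleton, muscle and adhesion the medians were -0.20, -0.025 and -0.20, and over 6 metabolic and secreted protein genes -0.16, -0.17 and -0.26. *bt*, which encodes the giant muscle protein projectin, spans 52075 bp with 158 fragments and had 0.002 (NSCs), 0.006 (elav neurons) and 0.087 (nSyb neurons), and 86, 82 and 108 of its fragments were above 0. It lay at percentile 52.2 in NSCs, where most genes of the chromosome lay far under percentile 50. *yellow-h*, a gene of the yellow family, had -0.26 in NSCs but 0.35 in elav neurons and 0.22 in nSyb neurons. *apolpp*, which encodes the main lipoprotein of the haemolymph, had -0.059, -0.082 and 0.068. *JYalpha*, a gene for a sodium pump subunit needed in sperm, had 0.021, -0.053 and -0.076.

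**Figure D3:**
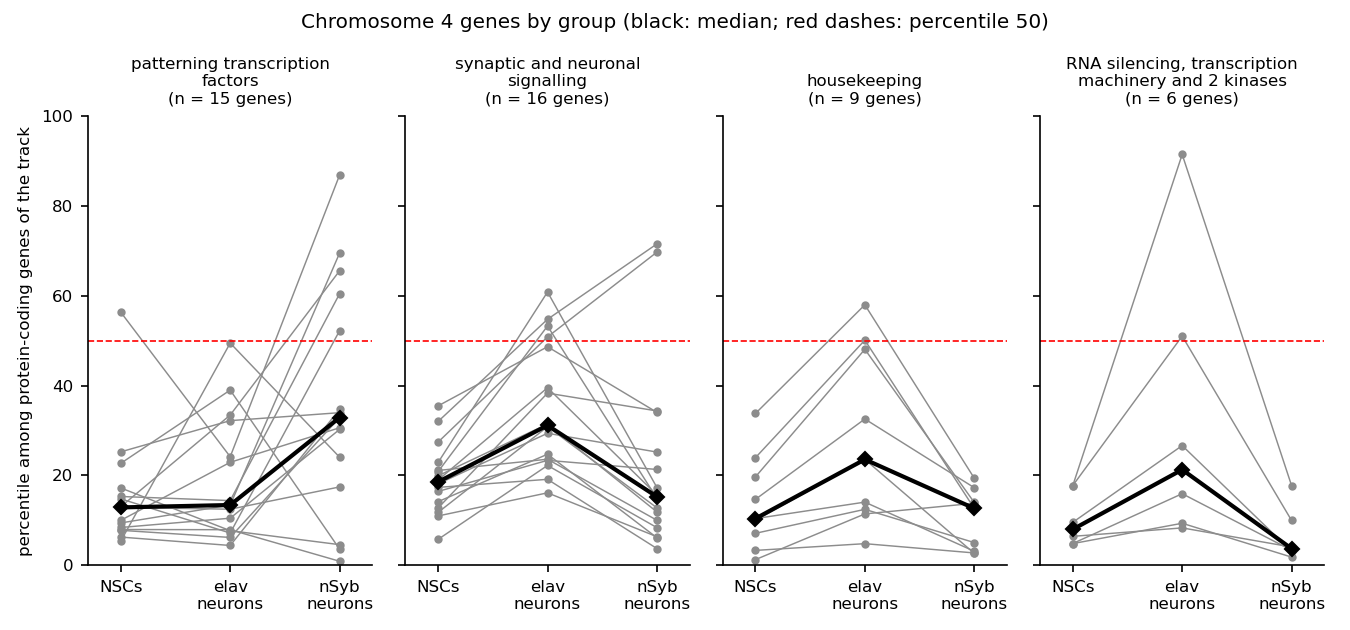
Percentile of each chromosome 4 gene among all protein-coding genes of its track, in NSCs, elav neurons and nSyb neurons, for 4 groups of 15, 16, 9 and 6 genes (grey: genes, black: group median, red dashes: percentile 50). The median of the patterning transcription factors is highest in nSyb neurons, at 32.9, while the medians of the other 3 groups are highest in elav neurons, at 31.1, 23.5 and 21.3. The median of all 80 genes, not drawn, is also highest there, at 23.7.

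To compare cell types, each gene value was scaled, that is, reduced by the median of all protein-coding genes of its track and divided by a robust SD (their median absolute deviation, rescaled). A difference of scaled values past 1 was counted. From NSCs to elav neurons, 34 of the 80 genes were higher by more than 1, or 42.5% beside 16.3% of all protein-coding genes, and 0 were lower by more than 1, beside 12.1%. The median difference was 0.87 beside 0.050 on the other arms, and 72 of the 80 genes were higher. From elav to nSyb neurons, 6 genes were higher by more than 1, or 7.5% beside 12.5% of all, and 27 were lower, or 33.8% beside 12.5%. The median difference was -0.49. From NSCs to nSyb neurons, 25 were higher, or 31.3% beside 14.1%, and 4 were lower, or 5.0% beside 11.1%. The sign of this last median depended on the scale, with 0.41 by scaled value, -0.048 by log2 ratio, and 0.59 by percentile. Each track has its own divisor, so a gene far below the median can count as higher without a higher log2 ratio. *Zip102B* was higher by 1.28 from NSCs to elav neurons, with a log2 difference of -0.018. *CG31997* was higher by 1.04 from NSCs to nSyb neurons, with -0.042. As log2 differences the first 2 medians were 0.14 and -0.15, beside 0.057 and -0.061 on the other arms. The counts thus describe scaled values and not gains of Cap-G. The 3 comparisons share tracks and are not independent of each other.

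The 6 genes that were higher by more than 1 from elav to nSyb neurons were *dati*, *ey*, *Sox102F*, *fd102C*, *fuss* and *toy*, all of them on the list of patterning factors. The lists were chosen with earlier results of these data known, so this overlap is a description only. *ey* was higher by 2.01, *dati* by 1.94, *fd102C* by 1.82, *Sox102F* by 1.78, *toy* by 1.64 and *fuss* by 1.45. Within the list, 6 of 15 were higher and 2 were lower (*NfI* at -2.12 and *lgs* at -1.98). In the synaptic list 0 of 16 were higher and 4 were lower, and in the housekeeping list 0 of 9 and 5. Of all 80 genes, 6 were higher and 27 lower (7.5% and 33.8%), so the synaptic list fell less often than the chromosome as a whole. In the list of RNA silencing, transcription machinery and kinases, 0 of 6 were higher and 5 were lower, with *Dyrk3* at -2.40 and *gw* at -1.89. *ATPsynbeta*, at -1.92, was among the 5 largest falls with *NfI*, *lgs*, *Dyrk3* and *gw*, counting only genes of at least 5 fragments as for the other largest differences given here. From NSCs to elav neurons the largest differences belonged to genes that were very low in NSCs: *CG46466* (4.02), *Crk* (3.63), *Rad23* (3.18), *Arl4* (2.97) and *CG33941* (2.89). From NSCs to nSyb neurons, *Arl4* (3.47), *Rad23* (3.42), *Crk* (3.16), *Sox102F* (2.42) and *yellow-h* (2.41) were the furthest up, and *CG1909* (-2.24), *lgs* (-1.67) and *NfI* (-1.52) the furthest down.

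Bound regions were defined over each whole track as runs of 2 or more neighbouring fragments above a high quantile, with an FDR of 0.01% relative to fragments placed in random order. Neighbouring fragments are correlated (r = 0.71 (NSCs), 0.77 (elav neurons) and 0.80 (nSyb neurons) on this chromosome), so this FDR is lenient. The fourth chromosome held 2 regions in NSCs, 0 in elav neurons, where the other arms held 1186, and 3 in nSyb neurons. This is 1.485, 0 and 2.23 per Mb, beside 6.60, 8.95 and 7.25 on the other arms together. X alone held 4.38, 5.69 and 2.29 per Mb, so in nSyb neurons it was close to the fourth chromosome. The regions covered 0.18% of the fourth chromosome in NSCs, beside 1.29% of the other arms and 0.88% of X. In nSyb neurons they covered 0.67%, beside 1.82% of the other arms and 0.46% of X. Genes were counted as bound when they overlapped a region or were nearest to one on either side, up to 5 kb away. In NSCs 3 of 80 protein-coding genes were bound, or 3.75% beside 9.01% of all. In elav neurons 0 were, beside 11.9% of all, and in nSyb neurons 2, or 2.5% beside 10.6%.

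Each region was chosen for high values in its own track, so a lower mean in the other tracks is a description and supports no difference between cell types. The first in NSCs, from 455701 to 457026 between *CaMKI*, a calcium/calmodulin-dependent kinase gene, and *Taf3*, held 7 fragments with a mean of 0.44. The same fragments had 0.51 (elav neurons) and -0.52 (nSyb neurons). The antisense gene *asRNA:CR45126*, also assigned to it, had -0.73, -1.04 and -1.40. The second, from 762745 to 763878, lay inside *bt* and held 6 fragments with a mean of 0.59 (NSCs), -0.47 (elav neurons) and -0.12 (nSyb neurons). The fragments ran from 0.48 to 0.84 in NSCs, the track that chose them.

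In nSyb neurons the longest region, from 825168 to 830438, lay inside *Sox102F* and held 13 fragments with a mean of 0.48. The same fragments averaged -0.32 in NSCs and -0.17 in elav neurons. The nSyb fragments, which chose the region, ran from 0.26 to 0.94. The next region, from 841605 to 843678, overlapped *fd102C* and the pseudogene *CR33797*, with 0.39 over 11 fragments in nSyb neurons. It was above 0 on average in the other tracks too, with 0.095 in NSCs and 0.22 in elav neurons. The last, from 1303869 to 1305492, lay after *Cadps* in a stretch without annotated genes, with 0.71 over 6 fragments, beside 0.11 in NSCs and -0.51 in elav neurons. In elav neurons a depleted stretch from 1304648 to 1308953, with a mean of -1.17, overlapped it.

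**Figure D4:**
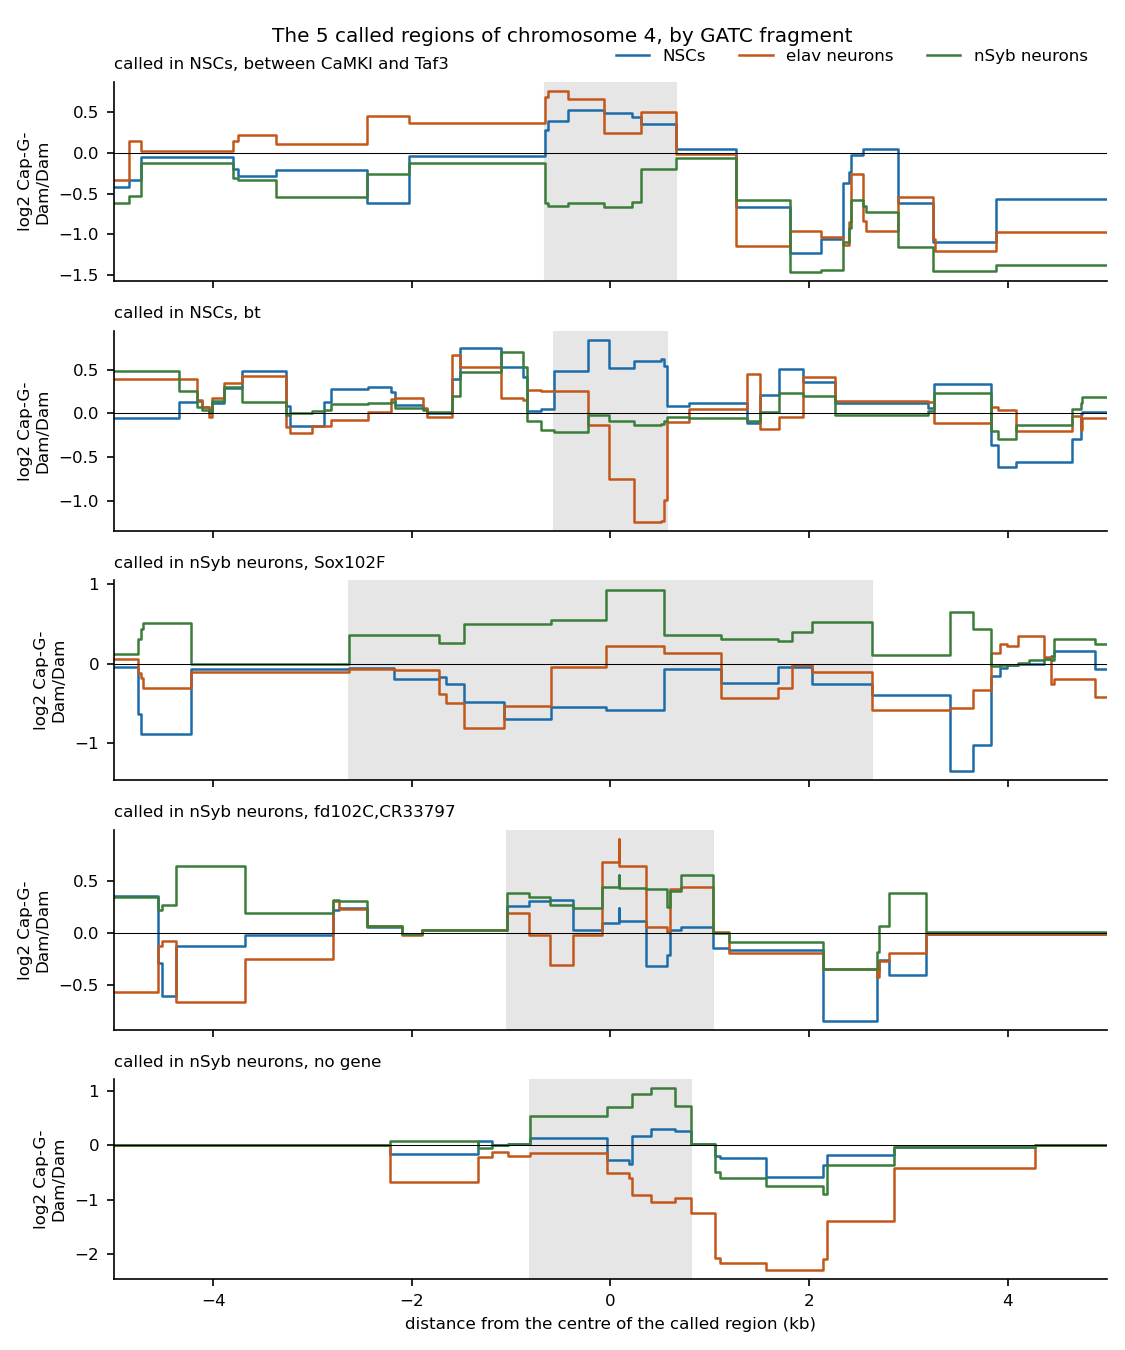
log2 Cap-G-Dam/Dam by GATC fragment in the 3 averaged tracks, within 5 kb of the centre of each of the 5 called regions of chromosome 4 (shaded). Each region was called from the high values of 1 track, so the height of that line in the shaded part is set by the call, and the means in the shaded part inside *Sox102F* are -0.32, -0.17 and 0.48.

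The same caller on the sign-reversed tracks gave depleted stretches, and the fourth chromosome held many of them. They numbered 56 (NSCs), 33 (elav neurons) and 49 (nSyb neurons), and covered 19.0%, 11.6% and 22.3% of the chromosome. On the other arms together they covered 4.23%, 5.04% and 5.65%. In NSCs 53 of the 56 overlapped a gene, in elav neurons 30 of 33 and in nSyb neurons 49 of 49, beside 88.6%, 84.1% and 92.6% of the stretches of the other arms, and 79.3% of the fragments of the fourth chromosome lay in genes. The longest, in nSyb neurons, was 14206 bp, from 862199 to 876405 over the border of *Gyf* and *unc-13*, with a mean of -0.86. Of the 80 protein-coding genes, which are longer than most, 51 touched such a stretch (NSCs), 28 (elav neurons) and 52 (nSyb neurons), beside 12.7%, 10.4% and 14.3% of all protein-coding genes. The lowest stretch of NSCs lay from 202866 to 207885, over the end of *CG31998*, with -1.34. In nSyb neurons a stretch of 9817 bp over *lgs*, from 434550 to 444367, had -0.84.

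The gap between *dati* and *lgs* was low in 2 cell types and not in the third. Its 101 fragments over 41.2 kb hold no protein-coding gene, and had means of -0.45 (NSCs), -0.50 (elav neurons) and 0.029 (nSyb neurons). In NSCs 8 of them were above 0, in elav neurons 11 and in nSyb neurons 71. On its *lgs* side the nSyb values turned down, to -0.97 over that gene, while *dati* on the other side had 0.009.

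Fragments near the ends of genes were lower than those further away. The gene table gives no strand, so starts and ends of genes could not be separated. Only protein-coding genes count in these distance classes, so genes of other kinds can lie outside. Within 500 bp outside a gene end, the 142 fragments of the fourth chromosome had means of -0.38 (NSCs), -0.33 (elav neurons) and -0.41 (nSyb neurons). More than 2 kb outside, 452 fragments had -0.19, -0.25 and -0.006, and their median was 0 in every track. Much of the stretch after *Cadps*, with 105 of 170 fragments at 0 in all 3 tracks, falls in this class. So does much of the gap between *dati* and *lgs*, with 0.029 in nSyb neurons. The means of this class thus rest partly on few places and on values of 0. Inside genes, within 500 bp of an end, 187 fragments had -0.36, -0.25 and -0.35, and 979 fragments more than 5 kb inside had -0.17, -0.14 and -0.14. Outside genes, the other arms were also lower near gene ends in NSCs and nSyb neurons, by a smaller amount, with -0.12 and -0.071 within 500 bp outside and -0.054 and -0.029 beyond 2 kb. In elav neurons they were higher near gene ends, at -0.068, than beyond 2 kb, at -0.10. Inside genes the other arms had -0.085, -0.023 and -0.067 within 500 bp of an end. Beyond 5 kb they had -0.048, -0.049 and -0.072, so against that class the ends were lower only in NSCs. From 500 bp to 2 kb inside they had -0.001, 0.067 and -0.004, and from 2 to 5 kb -0.002, 0.065 and -0.012. Against these middle classes the ends were lower in every track, as on the fourth chromosome. At more than 2 kb outside genes, the nSyb mean of the fourth chromosome was above that of the other arms, and this was so in no other class and track.

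**Figure D5:**
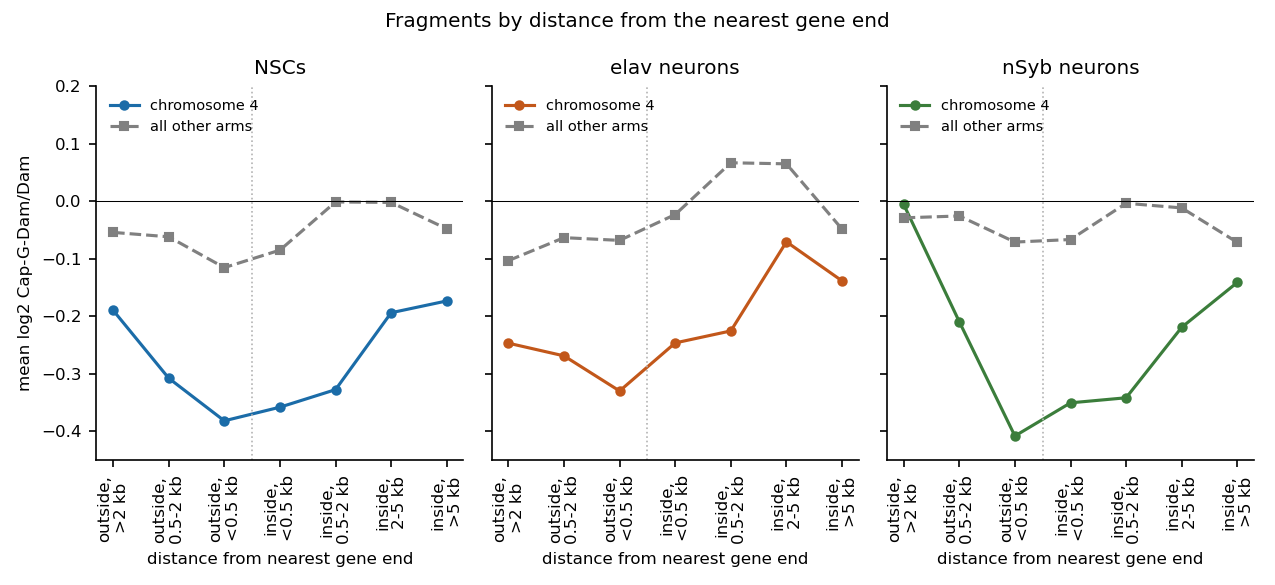
Mean log2 Cap-G-Dam/Dam of fragments in 7 classes of distance from the nearest end of a protein-coding gene, outside such genes (left of the dotted line) and inside them (right), for chromosome 4 (coloured) and all other arms (grey dashes) in the 3 averaged tracks. The coloured lines are lowest within 500 bp outside gene ends, at -0.38, -0.33 and -0.41.

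Averaged over all fragments in genes of any kind and outside them, the fourth chromosome had -0.23 and -0.26 in NSCs, -0.15 and -0.28 in elav neurons, and -0.22 and -0.15 in nSyb neurons. Genes were thus higher than intergenic fragments by 0.037 in NSCs and 0.14 in elav neurons, and lower in nSyb neurons (difference -0.064). On the other arms the differences were 0.027, 0.089 and -0.009.

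The profile of the chromosome was most alike between NSCs and elav neurons. Over its 135 bins of 10 kb, Spearman's rank correlation was 0.73 for this pair, 0.25 for elav with nSyb neurons, and 0.41 for the remaining pair. Over the bins of the other arms it was 0.66, 0.52 and 0.44. The elav and nSyb tracks were thus less alike on the fourth chromosome than on any other arm, where the correlation ran from 0.505 to 0.535. Those arms hold from 2351 to 3206 bins. No correlation was computed over stretches of them as long as the fourth chromosome, so its spread at that length is unknown. Bins are not replicates, and neighbouring bins share genes.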

How the data were processed

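Targeted DamID was carried out on 12 samples, 2 Cap-G-Dam and 2 Dam-only for each of 3 drivers. The authors aligned single-end reads of 50 bp to BDGP6 (release 6.03) with Bowtie2, binned them by GATC fragment, normalised Cap-G-Dam to Dam-only and averaged replicates. The deposited tracks, 1 per driver, hold log2 ratios. RNA-seq samples (12) were left out. Tool versions and the way of averaging: not given in the sources used here.

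All 3593 fragments of sequence name 4 were used, including those listed at 0. Genes came from RefSeq's table for Release 6 (17684 genes on 6 arms, 13922 protein-coding; 114 and 80 on chromosome 4), without strand or sequence. Means were weighted by length. Regions were called with thresholds at the quantiles 0.80, 0.85, 0.90, 0.95 and 0.99 of the whole track (at least 0), with the paper's FDR of 0.01% but on averaged tracks. The caller was tested on simulated tracks, made of the real values in random order with planted runs. Random order removes the correlation of neighbouring fragments, so this test cannot show whether the FDR holds on the real tracks. Values were computed in Python 3.11.15 (pandas 2.3.3, numpy 2.4.6, scipy 1.17.1) and drawn with matplotlib 3.10.9.

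The members, 7 gene lists and the alternatives were chosen with earlier results of these data known. Named genes were list members, the 5 highest and 5 lowest per track, the 5 largest rises and falls per comparison (genes of at least 5 fragments), and genes assigned to called regions. Other genes named at bins or stretches, the depleted stretches, the distance classes and the division of genes at 5 kb were chosen after values were seen. With no replicates, no test was run.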

Additional observations from a re-analysis of the deposited data

How the results depend on the processing

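No paired analysis was possible because the deposited tracks are averages over replicates, and for the same reason no replicate could be left out. The planned profile around gene starts was not run, since the gene table gives no strand. Of 81 alternative values for 24 results, 50 stayed within 0.05 (counts within 1.5 times), 30 moved and 1 changed sign. At an FDR of 1% there were 6 regions (NSCs), 9 (elav neurons) and 13 (nSyb neurons), with 5, 9 and 6 bound genes, beside 27.6%, 28.7% and 29.1% of all protein-coding genes. With quantiles from 0.90 to 0.99, nSyb neurons had 1 region, and with overlap required, NSCs had 1 bound gene. The median of fragments in place of the mean gave -0.12 (NSCs), -0.041 (elav neurons) and -0.10 (nSyb neurons). With each fragment counted once, nSyb neurons lay at -0.23 relative to the other arms. With the unweighted median of a gene's fragments, the gene median was -0.16 in NSCs and -0.043 in elav neurons. Without fragments listed at 0, genes exceeded intergenic fragments by 0.19 in elav neurons. The median change from NSCs to elav neurons, elav to nSyb neurons and NSCs to nSyb neurons was 11.2, -7.22 and 0.59 percentile points, 1.02, -0.80 and 0.22 scaled units with unweighted medians, and 1.21, -0.57 and 0.60 with 5 kb added on each side. As a difference of log2 ratios, a choice made after seeing the data and in another unit, like the percentile points, it was 0.14, -0.15 and -0.048, and the last changed sign. The rank correlation between NSCs and elav neurons was 0.54 over 1 kb bins and 0.46 over single fragments. Between NSCs and nSyb neurons it was 0.35 over single fragments, and between elav and nSyb neurons 0.32 over 1 kb bins. Of 408 alternative values for named genes, 31 had the other sign, 15 with unweighted medians and 16 with 5 kb added on each side. In 2 of them the value was at least 1 robust SD from the median gene: with unweighted medians, *MED26* was at 0.022 and *PIP4K* at 0.049 in elav neurons. The cause of these shifts was not tested. Read depth is unknown.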

Other observations

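Of the 34 genes of the fourth chromosome that do not encode proteins, several had extreme values, and they are named here after their values were seen. Their values often rest on a single GATC fragment that is longer than the gene. *mir-9385*, a microRNA gene in the gap between *dati* and *lgs*, lies in a fragment with -1.30 (NSCs), -0.48 (elav neurons) and 0.86 (nSyb neurons). *lncRNA:CR43437*, in the same gap, had -1.29, -1.92 and 0.17. *mir-954*, beside *mav*, had -0.29, -1.23 and -0.45, so the 2 microRNA genes did not share an order over the cell types. *asRNA:CR45124*, inside the span of *PlexB*, was the lowest gene of the chromosome in NSCs, with -1.78 over 2 fragments, beside -0.72 (elav neurons) and -0.47 (nSyb neurons). The 10 antisense genes had medians of -0.47, -0.25 and -0.17, and the 14 lncRNA genes -0.17, -0.31 and -0.074. The pseudogenes were nearer to 0, with medians over 7 genes of -0.013, 0.076 and 0.048.

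Pseudogenes at the left end held the highest fragments of the chromosome in elav neurons. A fragment of 203 bp in *CR32009*, from 31187 to 31390, had 0.26 (NSCs), 1.98 (elav neurons) and 1.43 (nSyb neurons), the highest value on this chromosome in both neuronal tracks. A fragment of 289 bp in *CR32010*, from 20053 to 20342, had 0.34, 1.48 and 0.79. Most other fragments of these pseudogenes were at or near 0, and the median over the fragments of each was 0.0 in all 3 tracks. At the right end, the lowest elav fragment, from 1318286 to 1319323, had -2.46, -3.10 and -1.80 and lay in no annotated gene.

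*CaMKII*, a kinase gene of neurons that was in none of the lists, had -0.39 (NSCs), -0.19 (elav neurons) and -0.50 (nSyb neurons). From elav to nSyb neurons its scaled value was lower by more than 1, which makes it 1 of 27 such protein-coding genes of the chromosome (difference -1.08). *Mpv17*, a gene for a mitochondrial membrane protein, spans 687 bp and had -0.64, -0.19 and -0.30.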
